A study of Mus musculus with 412 samples.

Results

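The neurons described here were lumbosacral (LS) sensory neurons of the mouse colon that expressed Piezo2, and they were compared according to whether they also expressed Trpv1. They were chosen from the measured values themselves: at least 9500 genes above 0, Piezo2 at 10 TPM (transcripts of every 1000000) or more, and both Gfra3 and Nrp1 below 10 TPM. Of 158 LS neurons in the deposited table, 51 met the rule, out of 325 neurons in all. Trpv1 reached 10 TPM in 22 of them, here called Trpv1-positive, and stayed below 10 TPM in 29, here called Trpv1-negative. Below, a neuron is said to have a gene at 10 TPM or more, and to be without it below 10 TPM.

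The study traced neurons from the colon of C57BL/6J mice by injecting the dye Fast Blue into the colon wall, and dissociated LS (L5 to S2) and thoracolumbar (TL, T10 to L1) dorsal root ganglia separately. Single dye-filled neurons were picked by pipette and sequenced by Smart-seq2, a full-length cDNA method, in 6 library plates. The labels list 203 TL neurons, 196 LS neurons and 13 bath controls without a cell, of which the table holds 167 TL and 158 LS neurons. The labels name no animal or culture, so each set of neurons counted as 1 sample, and every difference below is a description without a test.

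Piezo2 is an ion channel opened by mechanical force, and sensory neurons of the viscera use it to sense stretch and touch of the organ wall. Trpv1 is an ion channel opened by heat, acid and capsaicin, and in the colon it is carried mainly by peptide-releasing nociceptors, whose transmitters include substance P and calcitonin gene-related peptide. Neurons with both channels would therefore carry a force sensor together with a sensor of irritant and inflammatory stimuli.

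The rule removed neurons in steps. The gene minimum left 140 of the 158 LS neurons, and 67 of these had Piezo2 at 10 TPM or more. Gfra3 or Nrp1 then removed 16, of which 9 had Trpv1 at 10 TPM or more. Around each threshold, the nearest neuron left out was taken among those that met the other criteria, which were 2 neurons for the gene minimum and 1 for Gfra3. The nearest member had 10305 genes and the nearest such neuron left out 8665. For Piezo2 these values were 13.2 and 9.60 TPM. For Gfra3, the receptor subunit for artemin, they were 4.31 and 696 TPM, and for Nrp1, a semaphorin co-receptor, 7.65 and 14.4 TPM. For Trpv1 the lowest positive neuron stood at 11.98 TPM and the highest negative neuron at 8.97 TPM.

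Trpv1 did not fall into a low and a high group with empty space between. In the negative neurons its median was 0.629 TPM, with 9 neurons at 0, 8 above 0 but below 1 TPM and 12 from 1 to 10 TPM. In the positive neurons the median was 295 TPM and the highest value 1440 TPM. Of these, 4 lay between 10 and 20 TPM, the next stood at 64.0 TPM, and 13 reached 100 TPM. The positive share was 43.1% (22 of 51; exact Clopper-Pearson 95% interval 29.3 to 57.8%). By plate it was 4 of 7, 3 of 6, 6 of 15, 5 of 12 and 4 of 11 neurons in plates 2 to 6, so both sets were present in each of these plates. This and the intervals below cover counting error only: they treat neurons as independent, although neurons may share animals and cultures that the labels do not name. Reads came from PCR without molecular identifiers.

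Depth was similar in both sets. The positive neurons had between 711909 and 8791254 recovered reads, and the negative neurons between 509832 and 7594690. Median gene numbers were 14928.5 in the positive and 14525 in the negative neurons, and median mitochondrial shares 2.99% and 3.28%. The 10 neuron markers examined were present in both sets, led by Tubb3, a neuronal tubulin, at a median of 6352 TPM in positive and 6160 TPM in negative neurons. No pair of members held identical values. The member least like the others was a negative neuron with 1189 TPM of Mrgprd, a receptor of non-peptidergic nociceptors, which was at 0 in the other 50 members.

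Of 45513 genes, 7695 had a mean of at least 10 TPM in either set. On the scale of mean log2(TPM + 1), 143 genes (1.86%) were at least 2-fold higher in the positive neurons and 99 (1.29%) at least 2-fold lower, together 242 (3.14%). With the same sign required in each of the 5 plates that held both sets, 114 genes (1.48%) remained higher and 73 (0.949%) lower. The median difference over the genes tested was 0.01, with each neuron scaled to the same sum. Of the 7695 genes, 3972 were above 0 and 3723 below. The 15 leading genes in each direction, ordered by size among those with the same sign in the 5 plates, are described below by what they do. The higher ones included peptides and receptors, and the lower ones had varied roles and included the peptide gene Uts2b. A listed gene that passed the mean filter only through 1 set had to differ in mean TPM, though its log2 difference could go either way. The counts for lists below are therefore descriptions to be read beside 1.86% and 1.29%, and their medians are over all members of a list.

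**Figure D1:**
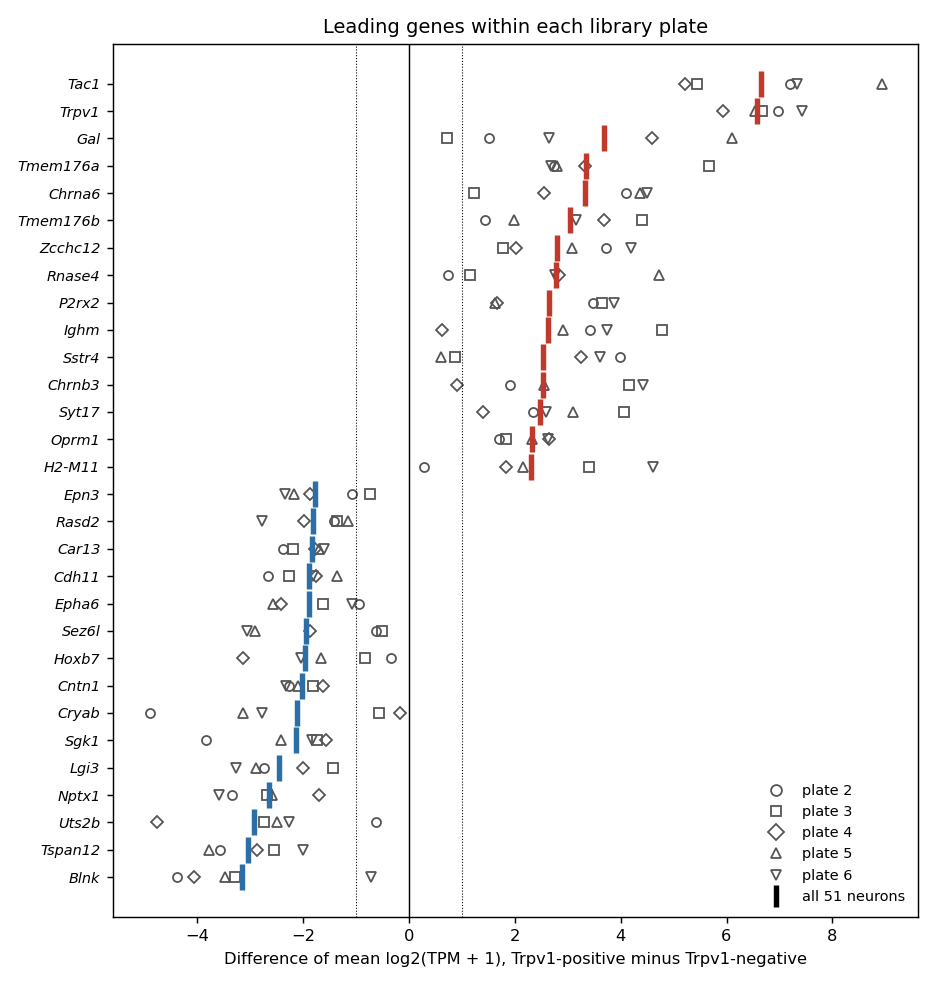
Difference of mean log2(TPM + 1), Trpv1-positive minus Trpv1-negative, for the 30 leading genes, over all 51 neurons and within each of plates 2 to 6. Trpv1 itself was used by the rule. Each gene keeps its sign in the 5 plates, as the choice of genes required, while the size varies between plates, as for Gal, which spans 0.72 to 6.10.

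Tac1, which encodes substance P, had a difference about as large as that of Trpv1, which the rule used (6.64 and 6.58). Over the alternatives Tac1 reached at most 8.11 and Trpv1 8.16, so their order did not always hold. In the positive neurons Tac1 ranged from 0.970 through a median of 1675 to 2738 TPM. In the negative neurons it ranged from 0 through a median of 3.66 to 1698 TPM. The ranges overlapped, because 10 of 29 negative neurons also had Tac1 at 10 TPM or more (34.5%, interval 17.9 to 54.3%), against 21 of 22 positive neurons (95.5%, 77.2 to 99.9%). The difference on the log2 scale was 6.64, between 5.22 and 8.93 in the plates, and the mean was 9.65 times as high. Counting both genes at 10 TPM, 21 neurons had Tac1 with Trpv1, 10 had Tac1 alone, 1 had Trpv1 alone and 19 had neither. The neuron with Trpv1 alone was the positive neuron with the lowest Trpv1.

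**Figure D2:**
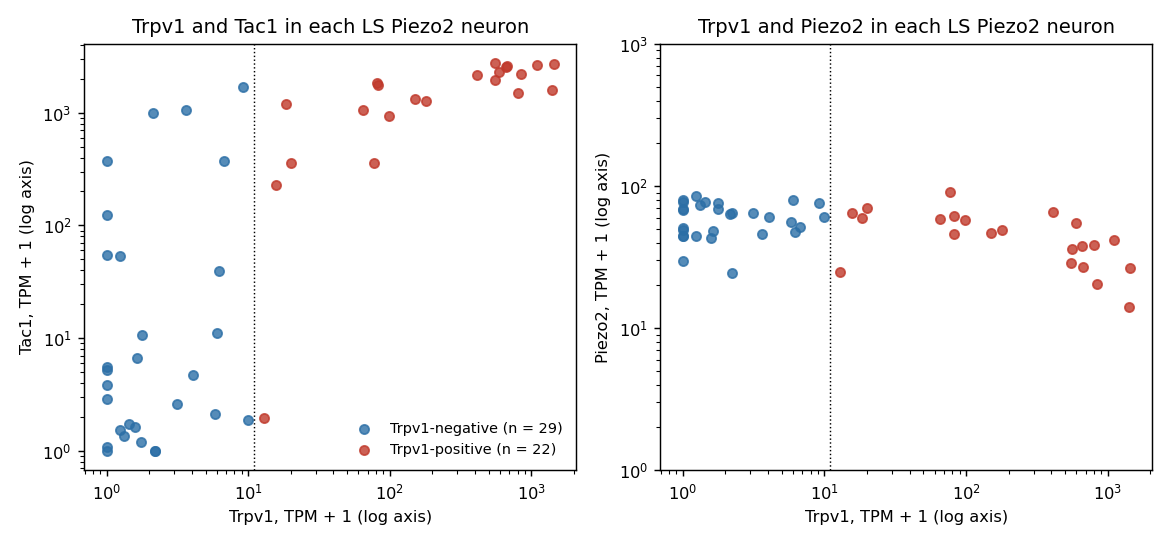
TPM + 1 of Tac1 and of Piezo2 against Trpv1 in the 51 neurons, on log axes, with a dotted line at the threshold of 10 TPM for Trpv1 and each point a neuron. Tac1 climbs with Trpv1 among the 22 positive neurons, while Piezo2 is lowest in several neurons with the most Trpv1.

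Other peptide genes of nociceptors were compared in turn. Gal, which encodes galanin, ranged from 12.1 through 317 to 5348 TPM in the positive neurons and from 0 through 26.9 to 637 TPM in the negative neurons. Its difference was 3.69, and all 22 positive neurons but only 22 of 29 negative neurons reached 10 TPM. Gal thus marked a shift in level more than presence or absence. Calca, which encodes calcitonin gene-related peptide, was at 10 TPM or more in each of the 51 neurons. Its median was 16457 TPM in the positive and 5154 TPM in the negative neurons, a difference of 1.74, with a range from 17.3 TPM up in the positive and from 45.3 TPM up in the negative neurons. The closely related Calcb differed by 0.47, with that sign in 3 of 5 plates. Adcyap1, which encodes the peptide PACAP, had medians of 1038 and 484 TPM and differed by 1.39. Its lowest positive neuron stood at 405 TPM, below the median of the negative neurons.

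Enzymes and granule proteins of these neurons followed. Th, the enzyme that makes dopamine precursor, had a median of 515 TPM in the positive and 167 TPM in the negative neurons, and differed by 1.95, or by 0.70 with Gfra3 and Nrp1 left out of the rule. Th was not confined to the positive neurons, since 27 of 29 negative neurons reached 10 TPM. Scg2, a protein of dense-core granules, differed by 1.33, or 0.96 without plate 4. Of the 19 genes on a list for peptidergic nociceptors, 16 passed the mean filter, 7 were at least 2-fold higher (1.86% over the genes tested) and none lower, and the median difference over the 19 was 0.16. Tac1, Gal, Th, Calca, Adcyap1, Scg2 and the ATP receptor gene P2rx3 were the 7. Nearer 0 on that list were the small-fibre filament Prph at 0.15 and the growth factor Bdnf at 0.07.

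Peptides did not all go the same way. Uts2b, which encodes a urotensin-related peptide, ranged from 0 through 592 to 3183 TPM in the positive neurons and from 0 through 4871 to 8274 TPM in the negative neurons. Its mean was 5.56 times lower in the positive neurons, and the log2 difference was -2.92. Uts2b still reached 10 TPM in 16 of the 22 positive and 24 of the 29 negative neurons, so that 16 neurons had Uts2b together with Trpv1. The 6 positive neurons without Uts2b had Trpv1 from 551 to 1440 TPM, whereas the 16 with Uts2b had a Trpv1 median of 89.6 TPM and reached 802 TPM. Among the positive neurons, Uts2b was therefore missing mainly at the upper end of Trpv1. It was also below 10 TPM in 5 of the 29 negative neurons. Vip, which encodes vasoactive intestinal peptide, differed by -1.57 but in only 4 of the 5 plates, and by -0.86 without plate 4. Cartpt, a peptide gene high in both sets, had medians of 3008 TPM in the positive and 5127 TPM in the negative neurons. Its log2 difference nevertheless was 1.36, because 4 negative neurons were at 0, and 3 of the 5 plates shared the sign; without plate 6 it was 0.81. Over 26 neuropeptide genes, 12 passed the mean filter, 5 were at least 2-fold higher and 2 lower, with a median of 0.09 over the 26; Npy and Sst were at 0 in every member.

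Receptors for transmitters and hormones held several of the leading genes. P2rx2, a subunit of the ATP-gated channel, ranged from 6.56 through 37.2 to 97.1 TPM in positive and from 0 through 4.71 to 42.2 TPM in negative neurons, a difference of 2.65. Its partner subunit P2rx3 had medians of 100 and 54.1 TPM and differed by 1.06, or by 0.90 without plate 3 and 0.98 without plate 6. For Trpv1 below 1 against at least 20 TPM, P2rx3 differed by 0.54. Counting both at 10 TPM, 30 neurons had the pair, 17 had P2rx3 alone and 0 had P2rx2 alone. Within the positive neurons 19 of 22 had both subunits, and within the negative neurons 11 of 29.

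Subunits of nicotinic acetylcholine receptors differed by gene. Chrna6 had a median of 54.3 TPM in the positive and 1.39 TPM in the negative neurons, a difference of 3.33. Chrnb3 reached 10 TPM in 11 of 22 positive neurons and in 0 of 29 negative neurons, a difference of 2.53. Each of the 11 neurons with Chrnb3 also had Chrna6. These genes are neighbours on chromosome 8 (GRCm38), Chrna6 at 27403212 to 27413944 and Chrnb3 at 27368711 to 27399730, on opposite strands with 3481 bases between them. Chrna3, another subunit, was high in both sets, with medians of 1006 and 741 TPM, and its difference of 1.42 came with 4 negative neurons at 0 and was 0.78 without plate 6. Chrnb4 differed by 0.99 and Chrnb2 by 0.04.

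Inhibitory receptors that couple to G proteins were also among the leading genes. Sstr4, a somatostatin receptor, reached 10 TPM in 14 of 22 positive neurons, with a median of 12.2 TPM. It reached 10 TPM in 0 of 29 negative neurons, where the highest value was 8.18 TPM. With reads thinned to 500000 in each neuron and a call at 5 reads in place of 10 TPM, it was called in 6 of 22 positive and 0 of 29 negative neurons. Oprm1, the mu opioid receptor, had a median of 7.25 TPM in the positive neurons and 0 TPM in the negative neurons, and reached 10 TPM in 10 and 1 of them. Sstr4 and Oprm1 were found together in 8 positive neurons and 0 negative neurons. The exons of Oprm1 overlap those of Ipcef1, and reads of such a pair could not be told apart because the strand use of the counting is not stated.

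The receptors that followed covered several ligands. Crhr2, a receptor for urocortins, differed by 2.05 and reached 10 TPM in 11 of 22 positive and 1 of 29 negative neurons, but differed by 0.83 where Piezo2 was at 50 TPM or more and by 0.86 with a pseudocount of 10. Npy1r, a neuropeptide Y receptor, had medians of 197 and 92.4 TPM and differed by 1.46. Lpar1, a receptor for lysophosphatidic acid, differed by 1.55, and the serotonin receptor Htr2a by 1.20, just under 2-fold without plate 2. Another serotonin receptor, Htr1d, went the other way at -1.35, with 2 of 22 positive and 14 of 29 negative neurons at 10 TPM. The serotonin-gated channel subunit Htr3a was high in both sets at 2833 and 2170 TPM. Over 64 receptor genes, 30 passed the mean filter, 11 were at least 2-fold higher and 1 lower (1.86% and 1.29% over the genes tested), and the median over the 64 was 0.16. Sstr4, Chrnb3, Oprm1, Crhr2 and Htr2a passed only through the positive neurons.

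The remaining leading higher genes had varied roles. Tmem176a, a membrane protein with several spans, ranged from 0 through 168 to 1118 TPM in positive and from 0 through 17.7 to 192 TPM in negative neurons, a difference of 3.34. Tmem176b, its relative, had medians of 258 and 21.0 TPM and differed by 3.04. They lie head to head and overlap by 578 bases at their starts, on chromosome 6 at 48840919 to 48847071 and 48833818 to 48841496, so some of their reads cannot be told apart. At 10 TPM, 34 of the 51 neurons had both, 2 had Tmem176a alone and 4 had Tmem176b alone.

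Zcchc12, a coactivator of bone morphogenetic protein signalling, had medians of 142 and 34.5 TPM and differed by 2.80. The ribonuclease gene Rnase4 differed by 2.79, and its exons overlap those of Ang. Ighm, the constant part of the immunoglobulin mu heavy chain, reached 10 TPM in 16 of 22 positive and 3 of 29 negative neurons and differed by 2.62. Syt17, of the synaptotagmin family, differed by 2.47 and was found in 13 and 5 neurons. H2-M11, a non-classical histocompatibility gene, differed by 2.31, and 1 positive neuron held its highest value of 1078 TPM.

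Promoter windows are shown for 3 of the higher genes that also followed the level of Trpv1 among the positive neurons, Trpv1 itself included. RefSeq gave a window of 300 bases around its own start for 18 of the 30 leading genes (build GRCm38.p6). The windows were read 5′ to 3′ on the plus strand, at chr6:7554811-7555110 for Tac1, chr11:73233899-73234198 for Trpv1 and chr6:48841233-48841532 for Tmem176a. Capitals mark matches, on either strand, to the TATA box (TATAAA), the CCAAT box, the GC box (GGGCGG), the E box (CACGTG) and the core of the cAMP response element (TGACG), none of which contains another. These motifs were found in 13.6%, 37.4%, 35.7%, 7.15% and 20.8% of 32851 windows of the same length.
Tac1: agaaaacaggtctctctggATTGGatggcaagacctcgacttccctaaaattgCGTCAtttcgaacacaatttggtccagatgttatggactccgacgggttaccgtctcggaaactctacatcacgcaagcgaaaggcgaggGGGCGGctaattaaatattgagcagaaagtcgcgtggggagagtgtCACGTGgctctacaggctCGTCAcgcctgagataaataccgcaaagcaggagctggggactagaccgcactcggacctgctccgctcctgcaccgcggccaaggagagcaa
Trpv1: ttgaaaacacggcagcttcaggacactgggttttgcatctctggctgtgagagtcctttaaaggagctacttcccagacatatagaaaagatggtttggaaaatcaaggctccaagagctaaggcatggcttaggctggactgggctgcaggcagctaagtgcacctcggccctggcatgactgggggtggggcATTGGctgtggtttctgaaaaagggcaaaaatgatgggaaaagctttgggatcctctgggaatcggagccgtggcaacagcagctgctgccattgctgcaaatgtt
Tmem176a: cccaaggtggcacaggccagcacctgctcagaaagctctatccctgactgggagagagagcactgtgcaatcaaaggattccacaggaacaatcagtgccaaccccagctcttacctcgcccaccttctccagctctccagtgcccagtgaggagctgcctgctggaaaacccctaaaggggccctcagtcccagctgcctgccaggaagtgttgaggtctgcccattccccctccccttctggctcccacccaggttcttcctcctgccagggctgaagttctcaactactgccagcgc
The Tac1 window held 1 match each to the CCAAT, GC and E boxes and 2 to the cAMP response core. The Trpv1 window held 1 match to the CCAAT box, and the Tmem176a window held none of the 5 motifs. RefSeq and GENCODE place some starts differently: the Trpv1 window ends before the start that GENCODE gives, and the Tmem176a window begins inside the gene as GENCODE places it. The Tmem176a window also covers the start of Tmem176b on the other strand, at 48841496. A match describes the letters in the window and shows no bound factor.

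Other channels of the Trp family were compared with Trpv1. Trpm3, a channel opened by heat and by steroids, ranged from 0 through 10.7 to 30.7 TPM in positive and from 0.110 through 3.05 to 9.61 TPM in negative neurons. It reached 10 TPM in 12 of 22 and 0 of 29 neurons, and differed by 1.46. Trpm2, a channel opened by oxidative stress and warmth, had medians of 12.7 and 8.12 TPM and reached 10 TPM in 20 of 22 and 10 of 29 neurons. Trpm3 and Trpm2 were low-level transcripts next to Trpv1. Trpv2 differed by 0.31 and Trpm4 by 0.04. Trpa1, an irritant sensor found in many colonic nociceptors, reached 10 TPM in 0 of 22 positive neurons and in 1 of 29 negative neurons. Of the 16 Trp genes 5 passed the mean filter, Trpv1 by the rule and Trpm3 and Trpm2 through the positive neurons alone, and the median over the 16 was 0.03; Trpc5 was at 0 in every member.

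Proteins that act on or beside Trpv1 were compared as well. Pirt, a membrane protein that binds Trpv1, had medians of 738 and 618 TPM and differed by 0.24. Tmem100, an adaptor between Trpv1 and Trpa1, differed by 0.65. Camk2a, a calcium-dependent kinase, was the 1 partner gene that was at least 2-fold higher, with medians of 118 and 46.4 TPM. F2r, the thrombin receptor, was the 1 that was lower, with medians of 18.7 and 66.7 TPM and a difference of -1.64. Of 27 partner genes 15 passed the mean filter, the median over the 27 was 0.11, and both F2rl1 and Ano1 were at 0 in every member.

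Piezo2 itself, used by the rule, was slightly lower in the positive neurons. It ranged from 13.2 through 45.2 to 89.5 TPM in positive and from 23.6 through 59.9 to 84.7 TPM in negative neurons. These ranges overlapped almost entirely and the difference was -0.43. Among other mechanotransduction genes, Kcnk2, the stretch-gated potassium channel TREK-1, was the 1 at least 2-fold higher, with medians of 22.8 and 10.9 TPM and a difference of 1.23. Asic3, an acid-gated channel, was the 1 lower, at -1.43. It reached 10 TPM in 2 of 22 positive and 12 of 29 negative neurons, but 1 of 5 plates had the other sign and the highest positive neuron stood at 323 TPM. Tmem63b, a channel sensitive to osmotic stretch, differed by 0.02, and Piezo1 did not exceed 1.52 TPM in a member. Of these 20 genes 10 passed the mean filter, and the median over the 20 was 0.04.

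Genes on a list for large neurons leaned the other way. The paper considers it unlikely that neurofilament markers go with much myelination in colonic neurons. Neither cell size nor myelination was compared here. Nefh, the heavy neurofilament chain, ranged from 54.5 through 126 to 329 TPM in positive and from 22.1 through 247 to 670 TPM in negative neurons. Its difference was -0.81, with the same sign in the 5 plates but short of 2-fold. The other chains, Nefm at -0.72 and Nefl at -0.56, and the metabolic enzyme Ldhb at -0.77, did the same. Nefm and Nefl overlap in their exons, so their reads cannot be fully told apart. None of the members was at 0 for Nefh.

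Of 21 genes on the list for large neurons, 13 passed the mean filter, 10 of these were below 0 (3723 of 7695 over the genes tested) and 3 at least 2-fold lower, with a median of -0.71 over the 21. The 3 were Kcna1, a potassium channel of axons, at -1.70, the synaptotagmin Syt2 at -1.11 and the vesicle protein Vamp1 at -1.03. Syt2 was at -0.95 without plate 3 and -0.69 without plate 6, and Vamp1 at -0.93 without plate 5 and -0.94 without plate 6, so only Kcna1 stayed past 2-fold with any 1 plate left out. Vamp1 had medians of 67.8 and 175 TPM. Kcna1 reached 10 TPM in 1 of 22 positive and 16 of 29 negative neurons. Among 44 potassium and Hcn channel genes, 21 passed the mean filter, 3 were at least 2-fold higher and 2 lower, with a median of -0.18 over the 44. The higher were Kcnk2, the acid-sensitive leak channel Kcnk3 at 1.18 and the sodium-activated channel Kcnt1 at 1.05. Kcnk3 was just under 2-fold without plate 2, and Kcnt1 at 0.87 without plate 6. Besides Kcna1, the lower was Kcna4, a channel of A-type current, at -1.40.

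The leading lower gene was Blnk, an adaptor protein best known from B cells. It ranged from 0 through 2.48 to 67.6 TPM in positive and from 0 through 45.9 to 336 TPM in negative neurons, a difference of -3.16. Blnk reached 10 TPM in 3 of 22 positive and 22 of 29 negative neurons. Tspan12, a tetraspanin of Norrin signalling, ranged from 0 through 2.46 to 26.4 TPM and from 4.80 through 34.5 to 100 TPM, a difference of -3.04. The sets overlapped for Tspan12 between 4.80 and 26.4 TPM. Its exons overlap those of a gene without a symbol.

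The other leading lower genes had varied roles. Nptx1, a neuronal pentraxin that gathers glutamate receptors, had medians of 6.62 and 55.7 TPM and differed by -2.65. Lgi3, a secreted protein of the leucine-rich Lgi family, differed by -2.46 and reached 10 TPM in 6 of 22 and 25 of 29 neurons. Cntn1, the axonal adhesion molecule contactin 1, had medians of 16.2 and 63.0 TPM and differed by -2.01, with 29 of 29 negative neurons at 10 TPM or more. Cdh11, a cadherin, had medians of 16.7 and 58.8 TPM and differed by -1.88. Epha6, an ephrin receptor whose exons overlap Gm9017, differed by -1.90, and Sez6l, a neuronal membrane protein, by -1.94. The small GTPase Rasd2 differed by -1.82 and the endocytic adaptor Epn3 by -1.77.

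Cryab, a small heat-shock protein whose exons overlap Hspb2, differed by -2.12. The salt-responsive kinase Sgk1 differed by -2.13, and the carbonic anhydrase Car13 by -1.83. Satellite glia wrap sensory neurons, and their summed markers also differed between the sets. The sum over 10 markers ranged from 0 through 322 to 7648 TPM in positive and from 7.90 through 1300 to 8420 TPM in negative neurons, with Apoe the most abundant. Of these markers 6 passed the mean filter, each below 0 (3723 of 7695 over the genes tested) and none past 2-fold, with a median of -0.44 over the 10. Apoe, most of the sum, was at -0.65, but at 0.25 without plate 4, and Fabp7 went from -0.22 to 0.13 without plate 2 and 0.29 without plate 4. Over the 51 neurons the sum had a rank correlation of 0.55 with Car13, 0.46 with Cryab, 0.46 with Sgk1, 0.35 with Cdh11, 0.33 with Lgi3 and 0.31 with Sez6l. Among the higher genes it was -0.35 with Sstr4, -0.28 with P2rx2 and -0.27 with Zcchc12, and it was -0.13 with Trpv1 and 0.09 with Uts2b, where neurons share plates and depth. Among the 25 members below the median sum, a comparison added after the data were seen, Apoe was at 1.41, Car13 at -2.31, Cryab at -2.55, Sgk1 at -2.39, Lgi3 at -2.58, Cdh11 at -1.56 and Sez6l at -1.58. The cell of origin of these transcripts was not tested. Of 8 Schwann cell markers 4 passed the mean filter, each below 0 beside that same share, and Pmp22 was the 1 past 2-fold, at -1.69. Pmp22 also made up most of their sum, and without it the median sums were 23.6 and 31.2 TPM.

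Growth factor and cytokine receptors were compared next. Kit, the receptor for stem cell factor, was the 1 of 12 tested that was at least 2-fold higher, with medians of 17.8 and 3.03 TPM and a difference of 1.93. Tnfrsf1a, a receptor for tumour necrosis factor, was the 1 lower, at -1.29, although its medians of 55.5 and 52.8 TPM were close. Tnfrsf1a was below 10 TPM in 6 of 22 positive neurons and in 0 of 29 negative neurons, and without plate 4 it was at -0.86. Ntrk2, the receptor for Bdnf, had medians of 76.9 and 95.6 TPM, and Ret, the signalling receptor for neurturin and its relatives, 60.2 and 74.6 TPM. The list held 23 genes, with a median of 0.01.

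Among 42 lineage transcription factors, 17 passed the mean filter. Rxrg, a retinoid X receptor, was the 1 at least 2-fold higher, with medians of 87.5 and 18.1 TPM and a difference of 2.04. Rarb, a retinoic acid receptor, was the 1 lower, at -1.26, in 4 of 5 plates and at -0.89 without plate 5. Pou4f1, a factor of sensory neurons at large, differed by 0.02. Isl1, another such factor, had medians of 82.8 and 130 TPM. The median over the 42 was -0.11. Hox genes mark position along the body, and Hoxb7 was the 1 of 9 tested that was past 2-fold, at -1.95, while Hoxb6, with medians of 7.81 and 19.3 TPM, stopped just short of it. Hoxd9 leaned higher at 0.96 and Hoxd10, the most abundant, was level at medians of 174 and 170 TPM. The list held 39 Hox genes, with a median of -0.06.

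Within the positive neurons the level of Trpv1 went with the level of several of these genes. Over 22 neurons, which share plates and differ in depth, the Spearman rank correlation with Trpv1 was 0.79 for Tac1, 0.79 for Oprm1, 0.84 for Crhr2 and 0.78 for both Tmem176a and Npy1r. It was -0.86 for Vamp1, -0.82 for Cntn1 and -0.75 for Nefh. For Piezo2 it was -0.63 and for Uts2b -0.61. Tac1 thus tended to rise and Nefh, Cntn1 and Uts2b to fall with Trpv1, which the rule used, but not neuron by neuron: the neuron with Trpv1 at 1407 TPM had Tac1 at 1597 TPM, below the positive median. These correlations were computed for each named and listed gene, and those quoted are among the larger ones.

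Counts of genes per neuron were compared too. Of the 14 leading higher genes other than Trpv1, a positive neuron had between 4 and 14 at 10 TPM or more, with a median of 12. A negative neuron had between 2 and 9, with a median of 4. Of the 15 leading lower genes the medians were 4.5 and 12. The 4 positive neurons with Trpv1 below 20 TPM stood between, with medians of 8 higher and 10.5 lower genes. The 10 negative neurons with Tac1 had medians of 6 and 11.5, against 4 and 12 in the other 19, with Tac1 itself among the higher genes counted. Over the 22 positive neurons the counts of higher and lower genes had a rank correlation of -0.62, and over the 29 negative neurons of -0.12. These genes were chosen for their difference between the sets, so the counts describe how the neurons line up and test nothing.

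A pair of other sets show where the positive neurons stood. LS neurons with Gfra3 at 10 TPM or more, 73 in number and almost all with Trpv1 (72 of 73), had a Trpv1 median of 1668 TPM. In these Gfra3 neurons the median of Tac1 was 4340 TPM, of Gal 5137 TPM and of Tmem176a 987 TPM. In each case this was above the median of the Trpv1-positive Piezo2 neurons, which lay between the negative neurons and the Gfra3 neurons. Nefh had a median of 37.2 TPM and Uts2b of 0 TPM in the Gfra3 neurons, below both Piezo2 sets. P2rx2 did not follow that order, with a median of 28.8 TPM in the Gfra3 neurons against 37.2 TPM in the positive Piezo2 neurons. Htr3a was at 53.5 TPM in the Gfra3 neurons, far below both Piezo2 sets. S100b, a calcium-binding protein, likewise was at 10.8 TPM there against 1112 TPM in the positive and 1528 TPM in the negative Piezo2 neurons. The differences between these sets were not tested.

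**Figure D3:**
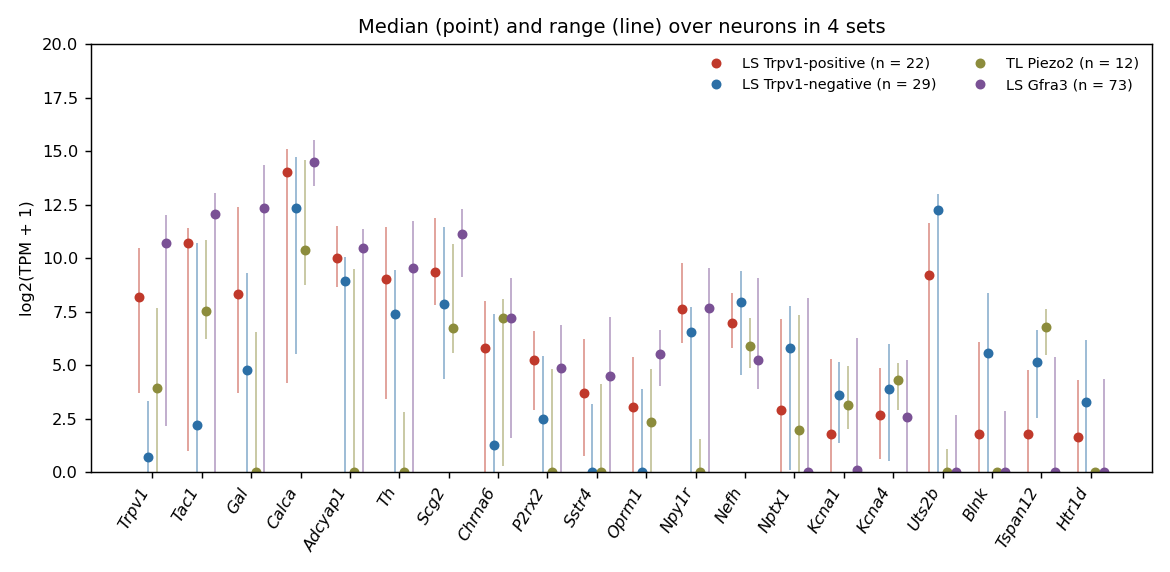
Median (point) and range (line) of log2(TPM + 1) for 20 genes in 4 sets: LS Piezo2 neurons with Trpv1 at 10 TPM or more (22), LS Piezo2 neurons with Trpv1 below 10 TPM (29), TL Piezo2 neurons (12) and LS Gfra3 neurons (73). For Tac1, Gal and Calca the medians of the Trpv1-positive Piezo2 neurons lie between the Trpv1-negative and the Gfra3 neurons.

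The same rule in TL ganglia found 12 neurons of 167, since 53 of the 66 TL neurons with Piezo2 and the gene minimum also had Nrp1. Trpv1 reached 10 TPM in 6 of the 12 (50.0%, interval 21.1 to 78.9%), but its highest value was 201 TPM. In these TL neurons other transcripts differed, as 11 of 12 had Mrgprd at 10 TPM or more, and Uts2b, Th and Gal had medians of 0 TPM. Tac1 was present in 12 of 12, at a median of 184 TPM. With so few TL neurons the interval is wide, and the shares of TL and LS neurons were not compared by a test.

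The study drew lists of leading names for its own classes from these same neurons, so these lists are not independent of the values here. Before clustering, the study set aside neurons with satellite glia transcripts. The rule here did not, so some members may be neurons that the study left out. Of 20 names for its pelvic peptidergic class pPEP, 13 passed the mean filter, with a median of 1.03 over the 20. Of the 13, 9 were at least 2-fold higher and none lower (1.86% and 1.29% over the genes tested). Igfbp7, a secreted binding protein for growth factors, was among the 9 at 2.00, but at 0.05 where Piezo2 was at 50 TPM or more. Sstr4, Crhr2 and Igfbp7 passed the filter only through the positive neurons. Of 20 names for its pelvic neurofilament class pNF, 18 passed, with a median of -0.37 over the 20. None was higher and 3 were lower, beside the same shares. Those 3 were Uts2b, the sulfotransferase Ust at -1.76 and the heparanase gene Hpse at -1.53, which was at -0.24 where Piezo2 was at 50 TPM or more. Ust had medians of 43.3 TPM in the positive and 264 TPM in the negative neurons. Spp1, the matrix protein osteopontin and a further name for that class, had medians of 43.3 and 2224 TPM and differed by -3.30, but in 4 of 5 plates. Ncam2, an adhesion molecule on the same list, was alike in both sets at medians of 98.0 and 114 TPM.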

How the data were processed

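Members, lists and comparisons were chosen with earlier results of these data known. The authors deposited log2 values, scaled per gene length, and named GRCm38.p3, bcl2fastq 2.15.0.4, STAR 2.4.1 and featureCounts 1.4.4 in their processing notes. Whether the counting used strand is not given in the sources used here. Here x = 2^value − 1 was rescaled to sum to 1000000 in each neuron, giving TPM from the deposited values. Whole reads were recovered with GENCODE M21 gene lengths (65.31% of values above 0 whole at a tolerance of 1e-10) and, for 8712 genes, with a length found from the values, and gave 416007 to 12058968 reads per neuron.

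Each set of neurons was 1 sample, so no test was run. The effect was the difference of mean log2(TPM + 1), positive minus negative, for genes whose mean TPM was 10 or higher in 1 set or both, and a gene was counted past 2-fold at a difference of 1 or more in size. The 15 genes with the largest difference in each direction and the same sign in the 5 plates with at least 3 neurons of each set were named, and members of the lists besides; predicted Gm and Rik genes and genes without a symbol (12 higher, 8 lower past 2-fold) were counted but not named. Shares have exact Clopper-Pearson 95% intervals. Reads were thinned to 500000 per neuron, with a gene called at 5 reads, and shares of the 30 leading genes kept their direction, while the difference of shares moved by up to 36.4 percentage points (Sstr4). Lists covered Trp channels, Trpv1 partners, mechanotransduction, large neurons, peptidergic nociceptors, neuropeptides, growth factor receptors, sodium, potassium and calcium channels, transmitter receptors, transcription factors, Hox genes, names of the study's classes, injury, immediate early and sex genes, and markers of neurons and of other cells. Alternatives changed the measure (CPM of recovered reads), the pseudocount (10), plate weights, plates left out, the gene minimum (none or 10500), the thresholds for Trpv1, Piezo2, Gfra3 and Nrp1, the mean filter and the fold. Positions come from GENCODE M21 and promoters from RefSeq. Calculations on simulated data with known differences preceded those on the table. Python 3.11.15, NumPy 2.4.6, pandas 2.3.3, SciPy 1.17.1 and Matplotlib 3.10.9 were used. The 13 bath controls are not analysed here. Some members of the lists are counted but not reported here by name.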

Additional observations from a re-analysis of the deposited data

How the results depend on the processing

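The positive share ran from 33.3% (Piezo2 at 50 TPM or more) to 52.9% (Trpv1 at 5 TPM), was 47.1% after thinning, and ran from 40.9 to 45.0% with plates left out in turn. The counts of 143 higher and 99 lower genes became 37 and 21 with a pseudocount of 10, 231 and 169 with Trpv1 below 1 against at least 20 TPM, 64 and 36 at a difference of 1.5, and 45 and 30 with a mean filter of 50 TPM. A mean filter of 1 TPM gave 218 higher genes, and leaving out the rule on Gfra3 and Nrp1 gave 228. The members low in satellite glia markers, a choice made after seeing the data, gave 286 and 149, and there the glial marker Apoe turned to 1.41. The filters and folds change which genes can be counted, and for the other choices the cause was not tested. With plates left out in turn the counts ran from 159 to 179 and from 93 to 132. CPM gave 170 and 127, of which 116 and 85 were among the 143 and 99. Without the neuron with Mrgprd, and with CPM leaving out a highly read gene without a symbol (up to 17.8% of a neuron's reads), both added after seeing the data, the counts were 141 and 101, and 185 and 137.

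Of 77 named or listed genes past 2-fold, run under 19 alternatives, 1316 of 1463 values stayed past 2-fold, and 1 changed sign. That was Cacng5, at 0.17 with Piezo2 at 50 TPM or more, where 9 positive and 18 negative neurons remained. At that threshold Igfbp7 was at 0.05, Hpse at -0.24, Kcnk3 at 0.29, Htr2a at 0.32, Htr1d at -0.39, Kcnt1 at 0.47, Trpm2 at 0.55, Tnfrsf1a at -0.56, P2rx3 at 0.73, Crhr2 at 0.83, Npy1r at 0.83, Vamp1 at -0.83, F2r at -0.87, Cacna1e at 0.89 and Scg2 at 0.96, and Kcna4, Ust and Adcyap1 were just under 2-fold. With Gfra3 and Nrp1 left out of the rule, Th was at 0.70, Asic3 at -0.91, Syt2 at -0.46, Kcna4 at -0.68 and Htr2a at 0.85. A Trpv1 threshold of 5 TPM left, among others, Htr2a at 0.67, Kcnk3 at 0.85, Cartpt at 0.81, Cacng5 at -0.83 and Hpse at -0.90. Trpv1 below 1 against at least 20 TPM left P2rx3 at 0.54 and Htr2a at 0.78. Of the 30 leading genes, 18 stayed past 2-fold in each alternative run. With a pseudocount of 10, 9 did not: Sstr4 (0.97), Syt17 (0.90), Oprm1 (0.79), Sgk1 (-0.96), Hoxb7 (-0.73), Sez6l (-0.73), Epha6 (-0.94), Car13 (-0.77) and Epn3 (-0.66). With Piezo2 at 50 TPM or more, H2-M11 (0.89), Cdh11 (-0.67) and Rasd2 (-0.43) did not. Of the other genes described, Trpm2 (0.52), Trpm3 (0.63), Asic3 (-0.68), Kcnk2 (0.82), Kcna1 (-0.67), Kcna4 (-0.71), Kcnt1 (0.53), Syt2 (-0.53), Vamp1 (-0.94), P2rx3 (0.76), Cartpt (0.89), Vip (-0.65), Kit (0.93), Tnfrsf1a (-0.58), Cacna1e (0.42), Cacng5 (-0.75), Htr1d (-0.61), Chrna3 (0.97), Crhr2 (0.86), Lpar1 (0.78), Rarb (-0.77), Igfbp7 (0.97), Sema5a (-0.79) and C1qb (0.98), and also Kcnk3 and Htr2a, were below 2-fold with a pseudocount of 10. Tac1 ran from 5.16 to 8.11 and Uts2b from -3.38 to -1.07. Nefh ran from -1.03 to -0.42.

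With no animal or culture named, differences between mice, cultures and neurons cannot be told apart. Depth limits low transcripts: a gene below about 10 TPM in a shallow neuron rests on few reads, so Oprm1, Sstr4 and Trpm3 were less certain per neuron than Tac1.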

Other observations

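Voltage-gated sodium channels were compared between the sets of Piezo2 neurons. Of 14 genes 7 passed the mean filter and none was past 2-fold, beside 3.14% over the genes tested, with a median of -0.25 over the 14. Scn10a, the tetrodotoxin-resistant channel of nociceptors, had medians of 154 TPM in the positive and 143 TPM in the negative neurons. Scn9a, which amplifies small depolarisations, had 72.0 and 70.2 TPM, and Scn11a, a channel of persistent current, 39.9 and 29.4 TPM. By these medians, both sets carried these sodium channels of nociceptors. Among 18 calcium channel genes, 8 passed, with a median of 0.01 over the 18. Of the 8, 1 was at least 2-fold higher and 1 lower (1.86% and 1.29% over the genes tested). Cacna1e, the pore of R-type channels, was higher at 1.08, with 12 of 22 positive and 5 of 29 negative neurons at 10 TPM, and at 0.81 without plate 4. Cacna1e passed the mean filter only through the positive neurons. Cacng5, of the family that regulates AMPA receptors, was lower at -1.02, and at -0.95 without plate 2, -0.95 without plate 3 and -0.98 without plate 4. The sign of Cacng5 turned, to 0.17, where Piezo2 was at 50 TPM or more.

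Genes of nerve injury and of recent activity were compared, with 3.14% of the genes tested past 2-fold. Of 12 injury genes 7 passed, each above 0 (3972 of 7695 over the genes tested) and none past 2-fold, with a median of 0.36 over the 12. Atf3, a factor induced by axon damage, was the highest of them at 0.88, with medians of 272 and 191 TPM, so it was well expressed in both sets after dissociation. The signs of these injury genes did not all hold. Gadd45a was at -0.19 without plate 2 and -0.21 without plate 4, and Stmn4 at -0.07 and -0.27. Where Piezo2 was at 50 TPM or more, Atf3 was at -0.17, Csf1 at -0.40 and Flrt3 at -0.05. Of 16 immediate early genes 12 passed, none past 2-fold, with a median of 0.03 over the 16. Fos had medians of 375 and 423 TPM. Xist was at most 0.0242 TPM in the members, and the Y-linked gene Ddx3y reached 10 TPM in 21 of 22 and 28 of 29 neurons. Of the 5 sex genes 2 passed, with a median of 0.20 over the 5.

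Besides the glial markers, few genes of other cells passed the mean filter. Of 10 macrophage markers only the complement gene C1qb passed the mean filter. It was higher in the positive neurons at 1.61, with medians of 33.4 and 14.7 TPM, and at 61.9 TPM in the LS Gfra3 neurons. Its partner genes C1qa and C1qc and the macrophage gene Tyrobp had medians of 0 TPM in both sets, so C1qb stood without them. None of 8 endothelial and 1 of 8 fibroblast or mural markers passed. That was Rgs5, at 0.52 although its mean was lower in the positive neurons (4.23 against 12.6 TPM), since 1 negative neuron stood at 330 TPM. The 10 neuron markers had a median of -0.14.

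The study's other lists of 20 leading names each were drawn from these same neurons too, and medians here are over the 20. Their counts are to be read beside 1.86% higher and 1.29% lower over the genes tested. For mNFb 12 names passed, 0 higher and 3 lower, with a median of -0.51; Sema5a, a guidance molecule, was lower at -1.50. For mNFa 9 passed, 1 higher and 4 lower, with a median of -0.37. Of those 4, Tmem72 was at -0.82 without plate 6, and Htr1d stayed past 2-fold with any 1 plate left out. Ppm1j without plate 5 and Osbpl1a without plate 2, 3, 4 or 6 were just under 2-fold. A pseudocount of 10 left Tmem72 at -0.48, Ppm1j at -0.53, Osbpl1a at -0.63 and Htr1d at -0.61. Where Piezo2 was at 50 TPM or more, Tmem72 was at -0.36, Osbpl1a at -0.76 and Htr1d at -0.39. For mPEPa 10 passed, 0 higher and 1 lower (median 0.06), for mPEPb 4 passed, 2 higher and 1 lower (median 0.40), and for mNP 8 passed with none past 2-fold (median -0.20).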
